A study of Mus musculus with 24 samples.

Results

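The 9 genes described here encode the cyclin-dependent kinase (CDK) inhibitors other than Cdkn1a (p21) and the pocket proteins of the retinoblastoma family. They were taken by name, with no threshold on a measured value, and each matched a single entry among the 49315 genes counted. Of the 6 inhibitors, Cdkn1b (p27) and Cdkn1c (p57) belong to the CIP/KIP family, whose members bind cyclin-CDK complexes of several kinds. Cdkn2a (as p16), Cdkn2b (p15), Cdkn2c (p18) and Cdkn2d (p19) form the INK4 family, which binds Cdk4 and Cdk6 alone. Arf, made from a separate first exon of Cdkn2a, is not an INK4 protein. The 3 pocket proteins are Rb1, Rbl1 (p107) and Rbl2 (p130).

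In a cell that is about to divide, cyclin D with Cdk4 or Cdk6, and then cyclin E with Cdk2, phosphorylate the pocket proteins, which release E2F transcription factors and thereby allow the genes of S phase to be transcribed. CDK inhibitors hold this step back. Rbl1 is itself transcribed from an E2F-controlled promoter in cycling cells, whereas Rbl2 is the pocket protein typical of resting cells, where it joins E2f4 and the MuvB complex. After ionising radiation the best known inhibitor is Cdkn1a, a target of p53. The question here was how the transcripts of its relatives and of the pocket proteins compared with it.

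The libraries were made from poly(A) RNA of primary astrocytes, the star-shaped glia of the brain, grown from the cortex of wild-type C57BL/6J mouse embryos shortly before birth. The cells of all embryos of a pregnant mouse were pooled, grown in medium with serum, and given 0, 0.1 or 2 Gy of X-rays. RNA was taken 6 h or 24 h later, and the 0 Gy cells were handled alike with the X-ray source switched off. Each of the 6 groups held 4 libraries, numbered 1 to 4, described as biological repeats. The labels do not say what libraries with the same number share. No group carried a transgene or a deletion.

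The 24 libraries held 14742855 to 38194800 counts. Levels are given as CPM, which are gene counts scaled to the library size after TMM normalisation. The astrocyte genes (Gfap, Aqp4, Slc1a3, Slc1a2, S100b, Aldh1l1, Aldoc and Sox9) summed to between 1722 and 2694 CPM in each library. Markers of other cells were present too. A list of 7 microglial genes summed to between 158.6 and 190.7 CPM in the libraries numbered 2, and to between 1050 and 1735 CPM in all others. Fibroblast and vessel genes summed to between 3371 and 7674 CPM, most of it Acta2 (smooth muscle actin, 2930 to 7369 CPM). Col1a1 was at 117.8 to 879.6 CPM, Pdgfrb at 45.5 to 78.5 CPM and Col3a1 at 1.3 to 119.2 CPM. Dcn was at 0.147 to 4.35 CPM and Pecam1 at 0.270 to 1.47 CPM. The mature oligodendrocyte gene Mog was at 0 in 10 libraries and the endothelial gene Cldn5 in 21. In such bulk samples fewer cells of a type and less RNA per cell cannot be told apart.

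Promoter sequences are given before the levels, as the transcription of this circuit turns on E2F sites. The letters of an E2F site (TTCCCGC in its usual form, with TTGGCGC as a variant, further TTCGCGC and lastly TTGCCGC, on both strands) occur in 9.57% of 32851 RefSeq promoters, taken as 250 bases before to 50 bases after each start site. Among those of the 9 genes whose promoters were read, they occur in a promoter of Cdkn2a, Cdkn2c and Rbl1. These stretches of 150 bases, ending at the base before the start site, are shown because the libraries of Rbl1 and Cdkn2c after 2 Gy at 24 h lay below all untreated ones, and because Cdkn2a holds the same letters as Cdkn2c and did not share that pattern. The choice thus followed the levels, and a link between letters and levels was not tested. Capitals mark the E2F letters, the strand is minus for all 3, and positions are those of GRCm38.p6.
Rbl1, chr2:157204535-157204684: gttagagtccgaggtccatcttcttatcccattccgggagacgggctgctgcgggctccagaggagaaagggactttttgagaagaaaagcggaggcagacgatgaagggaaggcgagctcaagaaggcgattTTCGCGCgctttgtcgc
Cdkn2c, chr4:109666757-109666906: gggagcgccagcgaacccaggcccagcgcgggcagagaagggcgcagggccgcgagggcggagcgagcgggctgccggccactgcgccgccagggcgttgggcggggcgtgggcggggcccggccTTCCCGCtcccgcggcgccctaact
Cdkn2a, start site of Arf, chr4:89294620-89294769: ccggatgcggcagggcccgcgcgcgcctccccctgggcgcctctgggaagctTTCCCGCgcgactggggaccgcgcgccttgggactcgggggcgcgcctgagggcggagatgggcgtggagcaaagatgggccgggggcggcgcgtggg

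The E2F letters begin 17 bases before the start site in Rbl1, 25 bases before it in Cdkn2c and 98 bases before it in Cdkn2a. The second promoters of Cdkn2a (that of p16) and Cdkn2c, and the promoters of Cdkn1b, Cdkn2b, Cdkn2d and Rbl2, hold none of these letters. The letters of the cell cycle homology element (TTTGAA and likewise TTCGAA, on both strands), to which the MuvB complex can bind, are in 19.2% of all promoters and in those of Cdkn2b and Rbl2. Promoters of Rb1 and Cdkn1c were not analysed here. A match of letters is a description and not evidence of binding.

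All 9 genes were detected in every library, with 9 counts in the lowest case (Cdkn1c in replicate 1 of 2 Gy at 24 h) and 5388 in the highest (Cdkn1b in replicate 3 of 0.1 Gy at 24 h). Divided by exon length, Cdkn1b was the most abundant with 28.9 ± 3.72 CPM per kb (SD, n = 24 libraries), followed by Cdkn2b with 23.7 ± 3.99 and Rb1 with 17.3 ± 5.89 CPM per kb. Cdkn2a stood at 11.1 ± 4.13, Cdkn2c at 9.55 ± 1.62 and Cdkn2d at 8.90 ± 2.41 CPM per kb. The lowest were Rbl2 with 6.75 ± 2.10, Rbl1 with 3.31 ± 0.969 and Cdkn1c with 1.36 ± 0.808 CPM per kb. Within most groups the neighbours in this order overlapped. In untreated cells at 6 h the ranges were separate only between Cdkn2d and Rbl2 and between Rbl2 and Rbl1, and in untreated cells at 24 h only between Cdkn2b and Cdkn2c, between Cdkn2d and Rbl1 and between Rbl1 and Cdkn1c. The INK4 gene nearest to Cdkn2a on chromosome 4, Cdkn2b, was thus the more abundant of that pair in all 4 libraries of untreated cells at 6 h and at 24 h.

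The genes differed in how much of their spread followed the replicate number. Cdkn1c, an inhibitor known from non-dividing embryonic tissue, was highest in the libraries numbered 2 at every dose and time, with 6.01 to 7.08 CPM at 6 h and 3.53 to 3.79 CPM at 24 h. Averaged over the 3 doses, its highest number exceeded its lowest 3.40-fold at 6 h and 3.47-fold at 24 h. Cdkn2a was lowest in those libraries in all 6 groups. They are also the ones with few microglial transcripts (158.6 to 190.7 CPM), and the part of this in either gene was not tested. Cdkn2b and Cdkn2c were nearly even between numbers at 24 h, where the highest exceeded the lowest 1.08-fold for both.

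**Figure D1:**
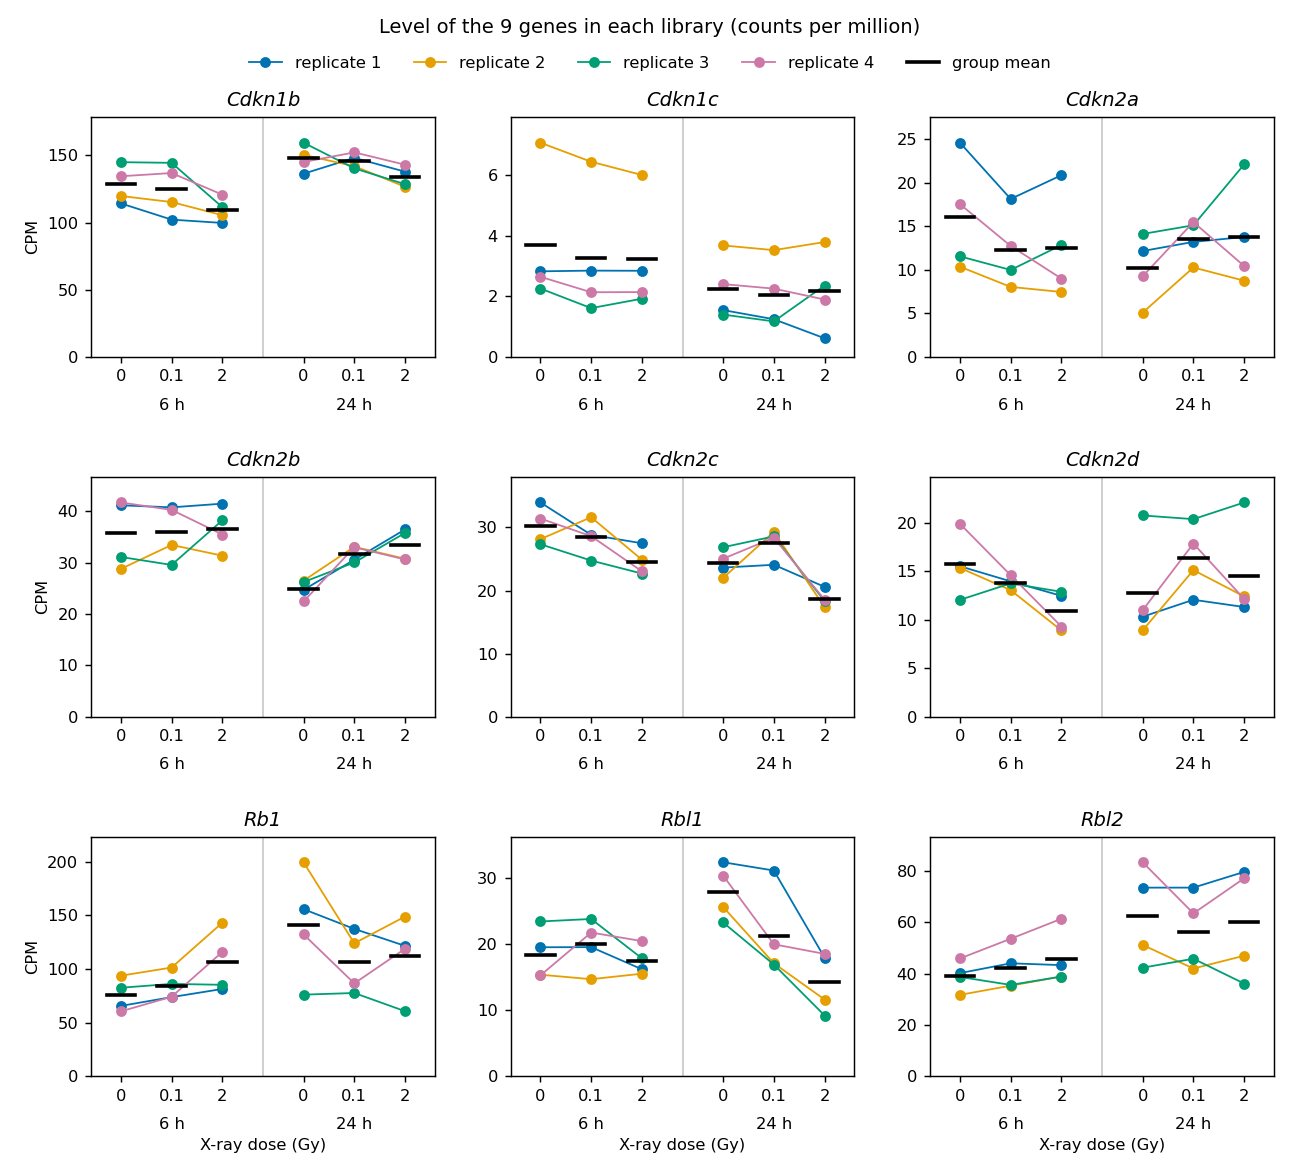
Level in CPM (vertical axis, from 0) of each of the 9 genes against X-ray dose (horizontal axis, Gy) at 6 h and 24 h. Points are libraries, coloured lines join libraries with the same number within a time, and black bars are means of 4 libraries. At 24 h the lines of Rbl1 go down from 0 Gy to 2 Gy for all 4 numbers, those of Cdkn2b go up, and Cdkn1c and Rb1 are spread mainly by replicate number.

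The clearest pattern was that of Rbl1 24 h after irradiation. In untreated cells the 4 libraries held 32.3, 25.6, 23.2 and 30.3 CPM of Rbl1. After 0.1 Gy they held 31.1, 17.1, 16.9 and 19.9 CPM, and after 2 Gy 17.9, 11.6, 9.19 and 18.5 CPM. Every library after 2 Gy was thus below every untreated one, while those after 0.1 Gy overlapped both groups. The mean went from 27.9 ± 4.19 to 14.3 ± 4.62 CPM (SD, n = 4 each), so that it decreased by 48.7%.

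With the libraries treated as unpaired, the quasi-likelihood test of edgeR put this difference at -0.96 on the log2 scale (SE, the standard error, 0.256) and did not call it (adjusted p = 0.61). None of the 9 genes was called in that fit at either dose and time, and neither was any other gene (0% of 15892 genes for 2 Gy at 24 h). The share of genes whose unadjusted p was under 0.05 was 3.59% for 2 Gy at 24 h (570 genes), 1.34% for 2 Gy at 6 h (215), 1.49% for 0.1 Gy at 24 h (241) and 0.15% for 0.1 Gy at 6 h (24). DESeq2's Wald test called 103 (0.727% of the 14177 genes it gave an adjusted p), 1, 0 and 0 genes, with none of the 9 among them. Of the 9, those under this limit were Rbl1, Cdkn2b and Cdkn2c for 2 Gy at 24 h, Cdkn2c, Cdkn2d and Rb1 for 2 Gy at 6 h, and Cdkn2b for 0.1 Gy at 24 h.

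Libraries with the same number deviated together from their group means (correlation across genes 0.54 to 0.93 for the dose comparisons), so the number was also entered as a block. In the blocked fit of 2 Gy against 0 Gy at 24 h, 13.2% of the 15892 genes were called, and 4 of the 9 genes were among them. Rbl1 fell by 0.9995 on the log2 scale (SE 0.123, adjusted p = 0.00402, edgeR). Cdkn2b rose by 0.42 (SE 0.0949, adjusted p = 0.0268), Cdkn2c fell by 0.38 (SE 0.101, adjusted p = 0.0412) and Rb1 fell by 0.31 (SE 0.0862, adjusted p = 0.0458). With GC content and gene length also taken out, as described further on, Rbl1 and Cdkn2c were called and Cdkn2b (0.14, adjusted p = 0.42) and Rb1 (-0.02, adjusted p = 0.88) were not. Without the libraries numbered 1 or those numbered 4, Rbl1 alone of the 9 was called (143 and 245 genes in all). Without those numbered 2 none was (69 genes called in all), and without those numbered 3 there were 5, Cdkn2a being added (5291 genes in all).

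The INK4 genes differed from one another. Cdkn2b, which is induced by TGF-beta in many cells, stood at 24.7, 26.5, 26.2 and 22.4 CPM in untreated cells at 24 h. It reached 30.6, 33.1, 30.02 and 32.98 CPM after 0.1 Gy and 36.5, 30.7, 35.8 and 30.6 CPM after 2 Gy. Both irradiated groups therefore lay wholly above the untreated one, a separation in this direction shared by 0.568% of genes for 0.1 Gy and 0.944% for 2 Gy. Both doses were set against the same 4 untreated libraries. At 6 h the untreated libraries had 28.8 to 41.7 CPM and the irradiated ones 29.5 to 41.5 CPM, with no separation.

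Cdkn2c, the INK4 gene most often linked to cycling progenitors, went the other way after 2 Gy. Its untreated libraries at 24 h held 23.6, 21.99, 26.9 and 25.04 CPM, those after 0.1 Gy 24.1, 29.3, 28.6 and 28.4 CPM, and those after 2 Gy 20.6, 17.4, 18.3 and 18.5 CPM. The 2 Gy libraries lay below all of the other 8, and a separation downward from the untreated group was seen for 2.01% of genes. Rbl1 was the only other of the 9 genes with it. Between the doses, 2 Gy against 0.1 Gy, Cdkn2c differed by -0.55 on the log2 scale (SE 0.130, with an adjusted p of 1.0 unpaired and 0.18 blocked by edgeR and of 0.0345 by DESeq2). That comparison had 0% of 16002 genes called in edgeR without or with the block (215 and 790 genes with an unadjusted p under 0.05) and 0.208% by DESeq2 (39 of the 18707 genes it gave an adjusted p). The separation of Cdkn2c downward between these doses was shared by 1.06% of genes. At 6 h Cdkn2c had 34.0, 28.1, 27.3 and 31.4 CPM in untreated cells and 27.5, 24.9, 22.7 and 23.1 CPM after 2 Gy, lower in all 4 pairs with an overlap at replicate 1 (log2 difference -0.30, adjusted p = 1.0 unpaired in edgeR). The 2 Gy difference of Cdkn2c between the times was -0.07 on the log2 scale unpaired (adjusted p = 0.95) and -0.47 with the block and GC correction (adjusted p = 0.0532 in edgeR), called in neither.

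Cdkn2a and Cdkn2d were not called at 24 h by edgeR with all 4 numbers in the fit. DESeq2 with the block called Cdkn2a for 0.1 Gy (adjusted p = 0.0482, beside 14.7% of genes). With the block and without the libraries numbered 3, Cdkn2a was called for 2 Gy (adjusted p = 0.0434) and for 0.1 Gy (adjusted p = 0.016), and Cdkn2d for 0.1 Gy (adjusted p = 0.00982, edgeR). Cdkn2a, whose counts pool the p16 and Arf transcripts, had 12.2, 5.08, 14.1 and 9.25 CPM in untreated cells and 13.8, 8.75, 22.1 and 10.4 CPM after 2 Gy, higher in all 4 pairs, as were 20% of genes (log2 fold change 0.45 with the block, SE 0.136, adjusted p = 0.0602 in edgeR). Cdkn2d had 8.90 to 20.8 CPM in untreated cells and 11.3 to 22.1 CPM after 2 Gy, with its highest library numbered 3 in all 3 groups of that time. The groups of both genes overlapped widely.

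Of the CIP/KIP genes, Cdkn1b was the steadiest of the 9, with a range of 1.60-fold over all 24 libraries. It stood at 147.8 ± 9.70 CPM in untreated cells at 24 h, at 145.7 ± 5.55 CPM after 0.1 Gy and at 134.1 ± 7.73 CPM in the 2 Gy cells (SD, n = 4 each). The last of these differed from the first by -0.14 on the log2 scale (SE 0.126, adjusted p = 0.94 unpaired and 0.34 with the block in edgeR). Cdkn1c had 0.613 to 3.79 CPM after 2 Gy and 1.40 to 3.68 CPM without. For comparison, Cdkn1a held 269.1, 358.4, 380.8 and 274.9 CPM in untreated cells at 24 h and 402.8, 566.5, 530.6 and 400.7 CPM after 2 Gy, and rose by 0.57 on the log2 scale in the blocked fit (SE 0.0845, adjusted p = 0.00929 in edgeR). Unpaired it was not called (adjusted p = 0.94), and its groups did not overlap. At 6 h Cdkn1a had 371.3 ± 129 CPM in untreated cells and 578.1 ± 128 CPM after 2 Gy (SD, n = 4 each), higher in all 4 pairs, and was called with the block and GC correction (log2 fold change 0.74, adjusted p = 0.00491) but not with the block alone (adjusted p = 0.141 in edgeR).

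The 3 pocket proteins differed in level and in response. Rb1 at 24 h was spread by replicate number, with 155.8, 199.5, 76.2 and 132.3 CPM in untreated cells and 121.6, 148.9, 60.8 and 118.9 CPM after 2 Gy. It was lower in each of the 4 pairs, as were 21.9% of all genes, and the groups overlapped. Rbl2 had 73.6, 51.3, 42.4 and 83.5 CPM in untreated cells and 79.7, 47.0, 36.2 and 77.2 CPM after 2 Gy, lower in 3 of 4 pairs and higher in the other, and by -0.08 on the log2 scale in the blocked fit (SE 0.0928, adjusted p = 0.57 in edgeR).

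Because Rbl1 and Rbl2 are close relatives counted in the same libraries, their levels were also set against each other per kb of exon. The Rbl1 level was 0.554, 0.629, 0.691 and 0.458 of the Rbl2 level in untreated cells at 24 h. After 0.1 Gy it was 0.533, 0.512, 0.464 and 0.396, and after 2 Gy 0.284, 0.311, 0.320 and 0.302. The 2 Gy libraries lay below all others, and their SD was the smallest of the 6 groups (mean 0.304 ± 0.0157, against 0.583 ± 0.101 in untreated cells). At 6 h the means were 0.600 ± 0.140 untreated, 0.608 ± 0.156 after 0.1 Gy and 0.492 ± 0.0664 after 2 Gy, and these groups overlapped. The log2 ratio at 24 h was lower by 0.92 after 2 Gy (SD of the 4 pairs 0.223), and leaving out single libraries gave values from -1.03 to -0.84. The ratio was not corrected for GC content, which is 42.1% in Rbl1 and 47.0% in Rbl2. Genes of like GC content had median unpaired log2 fold changes of -0.23 and -0.06 for 2 Gy against 0 Gy at 24 h.

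**Figure D2:**
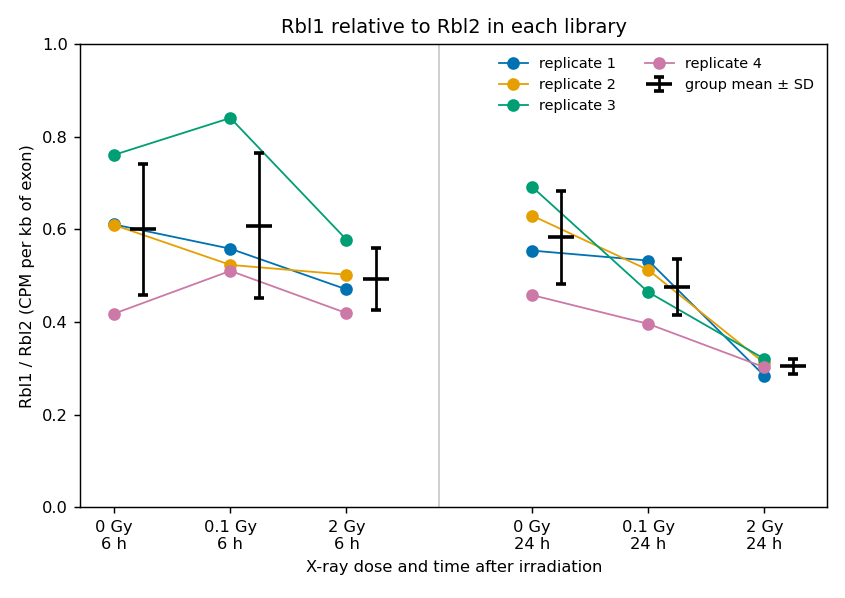
Rbl1 level divided by Rbl2 level, both in CPM per kb of exon (vertical axis, from 0), in each library by dose and time (horizontal axis). Coloured lines join libraries of one number, and black marks are means ± SD of 4 libraries. At 24 h all 4 lines descend with dose and meet between 0.284 and 0.320 after 2 Gy.

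At 6 h no gene passed the test in the unpaired or the blocked edgeR fit after 2 Gy (0% of 15994 genes, with 215 and 1101 at an unadjusted p under 0.05). Cdkn2d had 15.5, 15.4, 12.1 and 19.9 CPM in untreated cells and 12.5, 8.89, 12.9 and 9.29 CPM after 2 Gy, with an overlap at replicates 1 and 3. It differed by -0.53 on the log2 scale (SE 0.200, adjusted p = 1.0 unpaired). Rb1 had 65.7, 93.8, 82.6 and 60.6 CPM without and 81.5, 143.2, 85.3 and 116.0 CPM with 2 Gy, higher in all 4 pairs at a log2 fold change of 0.49 (SE 0.208, adjusted p = 1.0 unpaired). Cdkn1b had 114.3, 119.8, 145.0 and 134.5 CPM without and 99.7, 105.5, 111.5 and 120.8 CPM with 2 Gy, lower in all 4 pairs. A shift in the same direction in all 4 pairs was seen for 8.77% of genes upward and 8.55% downward. For 0.1 Gy at 6 h the log2 fold changes of the 9 genes ran from -0.39 (Cdkn2a) to 0.15 (Rb1), and 0% of 16020 genes were called with or without the block.

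For 0.1 Gy at 24 h the blocked fit called 6.84% of 16183 genes, and Rbl1 was the only one of the 9 among them, with a fall of 0.44 on the log2 scale (SE 0.113, adjusted p = 0.0383 in edgeR). With GC content and gene length also taken out it stood at -0.21 (adjusted p = 0.25) and was not called. Next to it were Cdkn2b at 0.33 (adjusted p = 0.0569) and Rb1 at -0.37 (adjusted p = 0.0599). Rbl1 was not called without the libraries numbered 2 or those numbered 4, where 21 and 16 genes were called in all. Without those numbered 1 there were 2 of the 9 beside 1176 genes in all, and without those numbered 3 there were 5 beside 3728 of 16060 genes. The corresponding values after 2 Gy were -0.9995 for Rbl1, 0.42 for Cdkn2b and -0.31 for Rb1, from the same untreated libraries.

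Whether the 2 Gy effect differed between the times was tested as an interaction over 16 libraries. The unpaired fit called 0% of 16866 genes (827 by an unadjusted p under 0.05, and 4 by the adjusted p of DESeq2), with Rbl1 at -0.88 (SE 0.317, adjusted p = 0.82 in edgeR). With the block 6.78% of genes were called, among them Rbl1 at -0.93 (adjusted p = 0.0356), Rb1 at -0.78 (adjusted p = 0.0371) and Cdkn2a at 0.82 (adjusted p = 0.0493). Without the libraries numbered 1, 2 or 4 none of the 9 was called (0, 0 and 138 genes in all), and without those numbered 3 there were 5, beside 3951 of 16871 genes. For Rb1 this was a shift from higher in all 4 pairs at 6 h to lower in all 4 at 24 h, as seen for 1.87% of genes. Rbl1 had overlapped at 6 h, with 15.2 to 23.4 CPM untreated and 15.5 to 20.4 CPM after 2 Gy.

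A property of the libraries moved with these changes. Across genes, the log2 fold change for 2 Gy at 24 h was correlated with the GC content of the transcripts (r = 0.56 over 15855 genes, a description across genes that are not independent), with -0.37 at 6 h and 0.59 for 0.1 Gy at 24 h. The pocket protein transcripts are GC-poor (Rb1 41.2%, Rbl1 42.1%, Rbl2 47.0%), as is Cdkn1b with 43.1%, while the INK4 genes and Cdkn1c run from 55.8% in Cdkn2d to 60.2% in Cdkn2a. When GC content and gene length were taken out library by library, with the block kept, 3.56% of genes were called for 2 Gy at 24 h. Rbl1 was still called at -0.73 (SE 0.102, adjusted p = 0.00832) and Cdkn2c at -0.66 (SE 0.0880, adjusted p = 0.00695 in edgeR). Cdkn2b went to 0.14 (adjusted p = 0.42), Rb1 to -0.02 (adjusted p = 0.88) and Cdkn2a to 0.07 (adjusted p = 0.77), none of them called.

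The same correction bore on the other comparisons. At 6 h after 2 Gy it brought Cdkn1b to -0.32 (SE 0.0568, adjusted p = 0.0385 in edgeR), called beside 0.721% of genes, with Rb1 at 0.36 (adjusted p = 0.0501). Between 2 Gy and 0.1 Gy, where fold change and GC content had r = 0.097, Cdkn2c was called at -0.59 (adjusted p = 0.0364, beside 0.651% of genes) and Rbl1 stood at -0.53 (adjusted p = 0.0552). In the interaction Rbl1 alone was called, at -0.56 (adjusted p = 0.0467, beside 2.39% of genes). None of the 9 was called for 0.1 Gy at 24 h, where 1.85% of genes were.

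**Figure D3:**
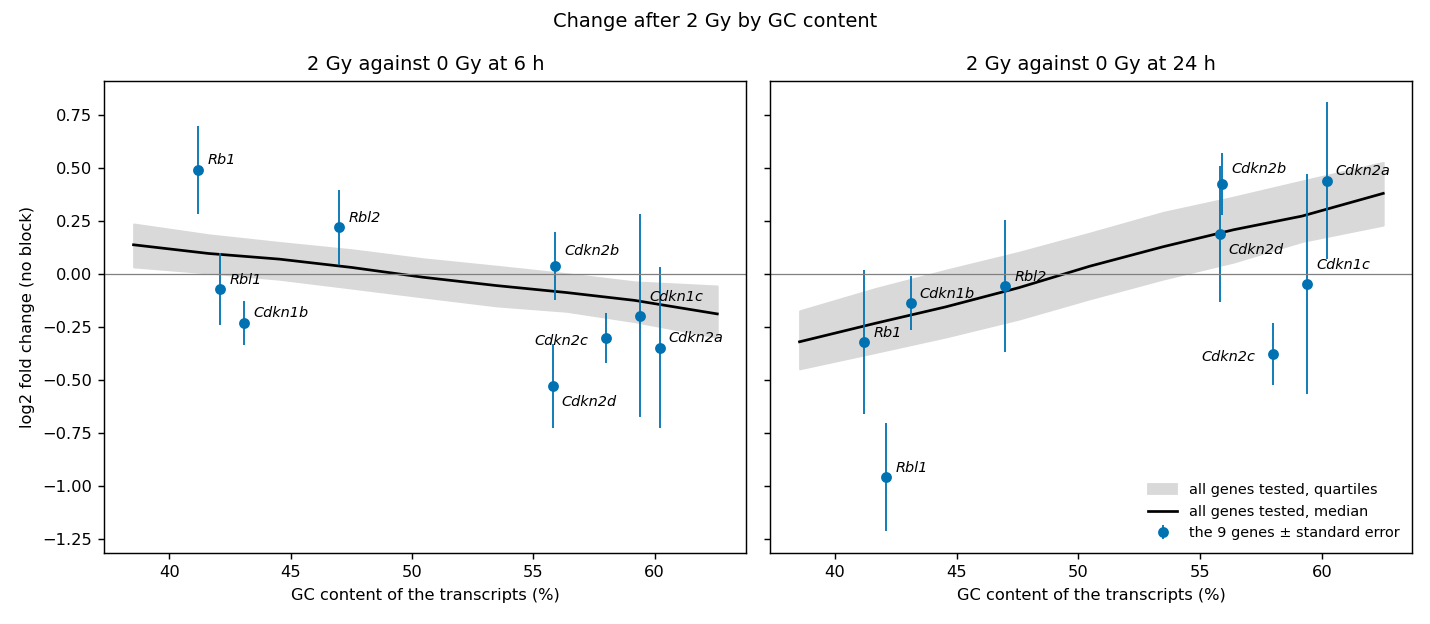
Unpaired log2 fold change for 2 Gy against 0 Gy (vertical axis) against the GC content of each gene's longest transcript in % (horizontal axis), at 6 h and at 24 h. The black line and grey band are the median and quartiles of all genes tested, and blue points are the 9 genes ± standard error. At 24 h Rbl1, Cdkn2c and, with a wide error, Cdkn1c lie below the band of genes with their GC content, Cdkn2b lies just above it, and Rb1, Rbl2, Cdkn1b, Cdkn2d and Cdkn2a lie within it.

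**Figure D4:**
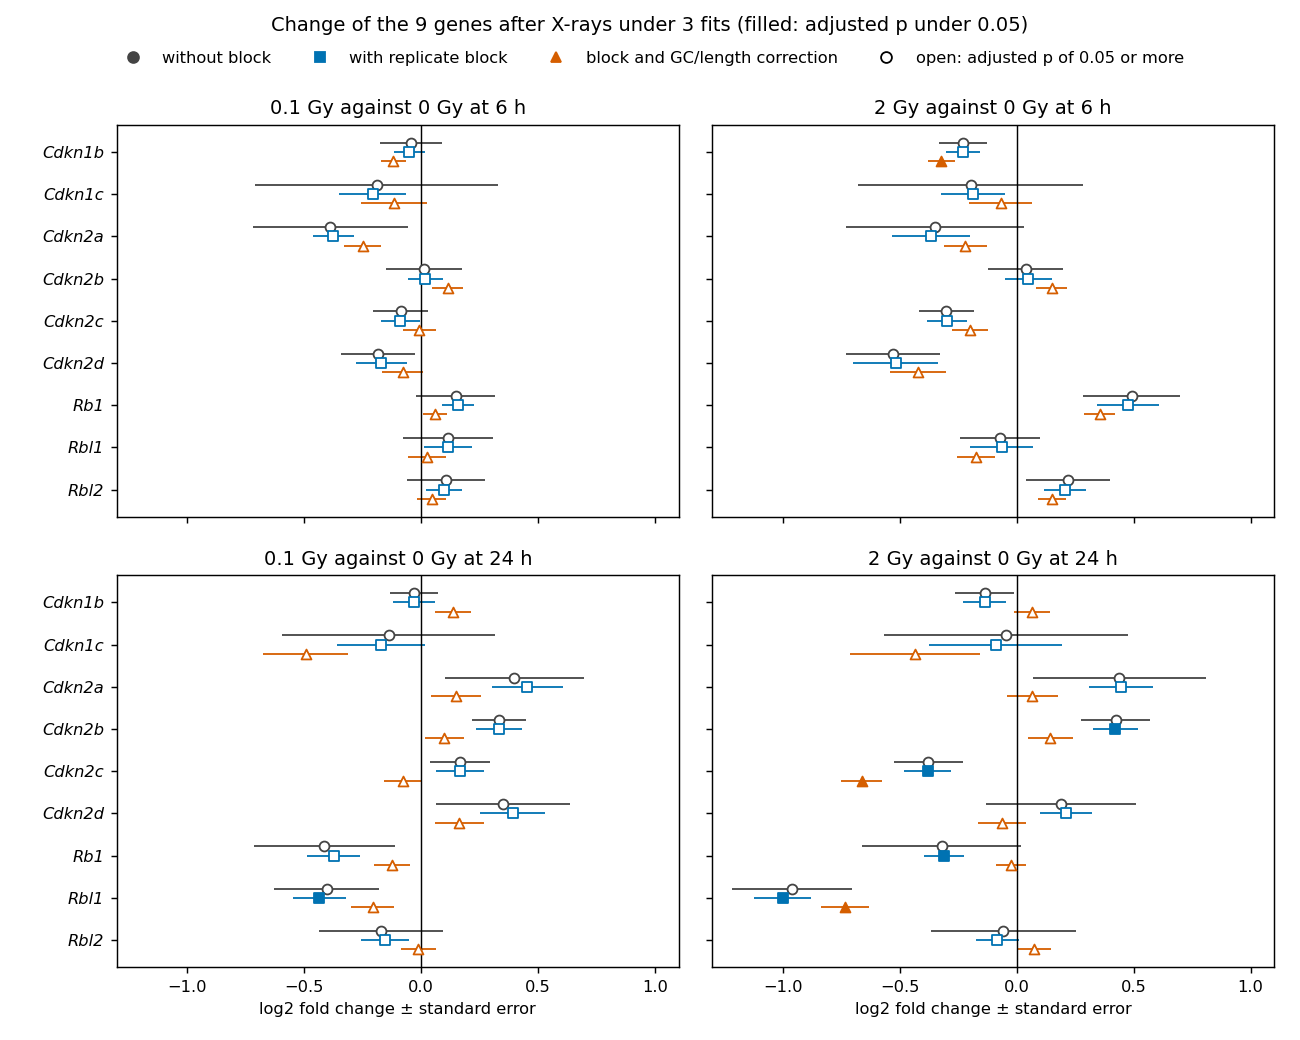
Log2 fold change ± standard error (horizontal axis) of the 9 genes for each dose and time against the untreated cells of that time, in edgeR without a block, with the replicate block, and with the block while GC content and length are taken out. Filled symbols have an adjusted p under 0.05. For 2 Gy at 24 h, Rbl1 and Cdkn2c are filled in both fits with the block, at -0.9995 and -0.73 and at -0.38 and -0.66.

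Other genes of the pathway were read in the same way, all for 2 Gy at 24 h in the blocked edgeR fit, where 13.2% of all genes were called. Of 10 cyclins and CDKs that act on the pocket proteins, 5 fell and none rose, with a list median of -0.46 against 0.00 over all genes tested. Those that fell were Ccne2 by 1.54, Ccna2 by 1.36, Ccne1 by 0.76, Cdk1 by 0.65 and Cdk2 by 0.60 on the log2 scale (adjusted p from 0.00144 to 0.0334). The D-type cyclins, Cdk4 and Cdk6 were not among them. Of 10 E2F and DP factors, E2f8 fell by 1.45, E2f7 by 1.26 and Tfdp1, a partner of the E2Fs in DNA binding, by 0.36. E2f7 and E2f8 are the atypical repressors of the family.

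Of the 6 genes of the MuvB complex and B-Myb, which pair with Rbl2 in rest and with B-Myb in division, Lin54 fell by 0.91, Mybl2 by 0.86 and Lin9 by 0.75. Of 8 genes that govern p27, 2 fell, in a fit that called 13.2% of all genes. They were Skp2 by 0.68 and Cks1b by 0.47, which together form the part of the ubiquitin ligase that recognises p27. Cdkn1b itself was at -0.14. Among 9 repressors of the Cdkn2a and Cdkn2b locus, Ezh2 fell by 0.64, Suz12 by 0.59, Bmi1 by 0.59 and Rnf2 by 0.49. Others of this list went the other way without a call, Ring1 at 0.41, Cbx7 at 0.32, Cbx8 at 0.31 and Pcgf2 at 0.07. The list median was -0.15. All 6 proliferation markers, which include Ccna2, fell, from Pcna by 0.54 to Mki67 by 1.61. The block and GC correction together called 5, 2, 2, 1, 1 and 6 genes lower in these 6 lists, and 1 gene of the p27 list higher (Rbx1, by 0.39), beside 3.56% of all genes. Of the genes named above, Tfdp1 (at -0.29), Lin9 (-0.47), Skp2 (-0.46), Suz12 (-0.34), Bmi1 (-0.33) and Rnf2 (-0.21 on the log2 scale, adjusted p from 0.0506 to 0.222) were no longer called by edgeR with this correction. Of the 5 genes of the Arf, Mdm2 and p53 axis, Cdkn1a alone passed the blocked test, and with the GC correction Mdm4, an inhibitor of p53, was called as well at 0.41 (adjusted p = 0.0446 in edgeR). In the unpaired edgeR fit 0 genes of these 6 lists were called, with 5, 3, 2, 0, 1 and 6 at an unadjusted p under 0.05.

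Marker lists of cell types moved little by comparison. Summed proliferation markers went from 427.2 ± 46.7 CPM in untreated cells at 24 h to 205.4 ± 20.5 CPM after 2 Gy, while astrocyte markers summed to 2269 ± 410 and 2346 ± 428 CPM and microglial markers to 974.3 ± 561 and 1071 ± 610 CPM (SD, n = 4 each). In the blocked fit Gfap and Aldh1l1 rose by 0.36 and 0.34, C1qa rose by 0.48 and P2ry12 fell by 0.52, and none of these 4 was called after the GC correction. No neuron, oligodendrocyte, fibroblast or vessel marker was called in either fit. The part of cell composition in the changes of the 9 genes was not tested.

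Untreated cells were also compared between the times, 24 h against 6 h. The unpaired edgeR fit called 6.7% of 15887 genes and none of the 9, of which 5 had an unadjusted p under 0.05 (24.7% of all genes), and DESeq2 called 11.7% of the 17035 genes it gave an adjusted p, with Rb1 among them (adjusted p = 0.0328). The means of all 3 pocket proteins were higher at 24 h, with log2 differences of 0.89 for Rb1 (SE 0.276, adjusted p = 0.0883 in edgeR), 0.59 for Rbl1 (0.187, adjusted p = 0.0928) and 0.66 for Rbl2 (0.228, adjusted p = 0.114). Without the untreated library numbered 3 at 24 h, 2999 genes were called and these 3 were among them. In the libraries numbered 3, Rb1 and Rbl1 were not higher. The mean of each of the 4 INK4 genes was lower at 24 h, from -0.32 for Cdkn2d to -0.68 for Cdkn2a. In the libraries numbered 3, Cdkn2a and Cdkn2d were higher at 24 h. Cdkn2b and Cdkn2c were lower without overlap between the times, as were 7.44% of genes. The correlation of this difference with GC content was -0.32. Oligodendrocyte lineage markers summed to 110.9 ± 37.7 CPM at 6 h and 62.5 ± 16.02 CPM at 24 h, with Cspg4 at 77.7 and 28.6 CPM (SD, n = 4 each), and their part in these differences was not tested.

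The genes whose pattern was most like each of the 9 were found by Pearson's r of log2 CPM over the 24 libraries, after the mean of the 3 libraries with the same number and time was taken off, among 17353 genes. Rbl1 was closest to Smc2 (r = 0.99), Atad2 (0.99) and Cenpe (0.98), and Cdkn2c to Uhrf1 (0.88), Pold1 (0.88) and Spc24 (0.88). Cdkn2b was closest to Cbr1, Gm45774 and Coq9 (0.90 for each), Rb1 to Nrd1, Map2k4 and Tax1bp1 (0.96 for each) and Rbl2 to Stam2, Rbpj and Gm15983 (0.91 for each). Cdkn2a was closest to Rpl18, Atp5g1 and Rplp1 (0.96 for each) and Cdkn2d to Trmt61a, Pgp and Tmem109 (0.93 for each). Cdkn1b was closest to Fkbp5 (0.86), Nek2 (0.84) and Cfap43 (0.84), and Cdkn1c to Memo1 (0.81), Gm45418 (0.80) and Gm17494 (0.78). Among the 9, Rb1 and Cdkn2d were the most opposed pair (r = -0.95), and Rb1 and Rbl2 (0.85) and Cdkn2a and Cdkn2d (0.84) the most alike. The points share dose, replicate number and base composition, so these values are descriptions.

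Some of the 9 overlap other genes, and the strand setting of the counting is not given in the sources used here. Rb1, on chromosome 14 (73183673 to 73325822, minus strand), shares 488 exon bases with Rcbtb2 and 408 with Lpar6, both on the other strand. Rbl2, on chromosome 8 (91070057 to 91123844, plus strand), shares 693 exon bases with Aktip and 892 with Gm45464, and Cdkn1c shares 625 with Gm44732. Rbl1, on chromosome 2 (157145893 to 157204534, minus strand), Cdkn2b, on chromosome 4 (89306289 to 89311032), and Cdkn2c, on chromosome 4 (109660876 to 109667189), share none with another gene.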

How the data were processed

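The authors deposited whole-number read counts per gene for each of the 24 libraries (paired-end sequencing of poly(A) RNA in a single run, trimmed, mapped to mm10 and counted by a service company). Aligner, counter and strand setting are not given in the sources used here. Gene symbols and GC content (of the longest transcript of each gene) came from GENCODE M21 (GRCm38). It held 48970 of the 49315 IDs, 44737 of them at the same position. Overlaps were read from the deposited gene coordinates. Promoters came from RefSeq (GRCm38.p6).

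Libraries were grouped by their labels. Counts were filtered with filterByExpr, TMM-normalised and fitted with edgeR 4.0.16 in R 4.3.3 (glmQLFit, glmQLFTest) on the groups compared, with Benjamini-Hochberg adjustment over all genes tested and calls at an adjusted p under 0.05. All 9 genes passed the filter in all 7 comparisons. Levels are TMM-scaled CPM over all 24 libraries. Replicate numbers, from the labels, were checked by correlating deviations from group means, and paired libraries within a time. P-values measure the spread between these libraries. Alternatives were DESeq2 1.42.0, size factors, no filter, the replicate block, a spline correction for GC content and length (5 degrees of freedom), all 24 libraries in a fit, and left-out libraries. The steps were tested on simulated data. The 9 genes and the pathway and marker lists were chosen with earlier results of these data known. Genes named from the lists are those called for a dose in the unpaired or blocked fit, beside Cdkn1a and examples of each marker list. Rbx1 and Mdm4 were named after their values were seen.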

Additional observations from a re-analysis of the deposited data

Results flagged for a closer look

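Among the 54 sets of 4 libraries (9 genes in 6 groups), 2 had a library far from the other 3, and chance gives about 1 in 20. Cdkn1c reached 7.08 CPM in replicate 2 of untreated cells at 6 h, against 2.26 to 2.83 CPM in the others. Cdkn2d reached 22.1 CPM in replicate 3 of 2 Gy at 24 h, against 11.3 to 12.4 CPM.

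For 2 genes every pair went one way at 6 h and the opposite way at 24 h. Rb1 was higher after 2 Gy in all 4 pairs at 6 h and lower in all 4 at 24 h, as were 1.87% of genes, a log2 difference between the times of -0.80 in the unpaired edgeR fit (adjusted p = 0.82, 0.0371 with the replicate block, and 0.0558 at a difference of -0.37 with the block and GC correction). Cdkn2a was lower after 0.1 Gy in all 4 pairs at 6 h and higher in all 4 at 24 h, as were 2.55% of genes, a mean log2 difference of 0.86. For Cdkn2a at this dose the difference between the times was not tested.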

How the results depend on the processing

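The number of the 9 genes called was 0 in the unpaired edgeR fit of all 7 comparisons, and stayed 0 with DESeq2 size factors, library size alone, no filter, or the GC content and length correction without a block. With the replicate block it was 1 for 0.1 Gy at 24 h, 4 for 2 Gy at 24 h, 2 for 24 h against 6 h and 3 for the interaction, and 0 in the other 3 comparisons. DESeq2 with the block gave 4, 4, 4 and 4 for these, and 1 for 2 Gy against 0.1 Gy. The correction with the block gave 1 for 2 Gy at 6 h, 2 for 2 Gy at 24 h, 1 for 2 Gy against 0.1 Gy, 3 for 24 h against 6 h and 1 for the interaction. DESeq2 without a block gave 1 for 2 Gy against 0.1 Gy and 1 for 24 h against 6 h, and all 24 libraries in a fit gave 1 and 2. Leaving out libraries, unpaired or with the block, gave 0 to 5 for 0.1 Gy at 24 h, 0 to 5 for 2 Gy at 24 h, 0 to 5 for the interaction and 0 to 8 for 24 h against 6 h, the highest always without replicate 3, where 7192 of 15840 genes were called for 24 h against 6 h. The cause was not tested. For the untreated libraries across times the r of deviations was 0.409, 0.824 and 0.517 for replicates 1, 2 and 4 and 0.0645 for replicate 3, so that not every number was paired. The blocked calls there were Rb1 and Rbl2 in edgeR, these and Rbl1 with the correction, and these 3 and Cdkn2a in DESeq2. The log2 Rbl1 to Rbl2 ratio kept its direction without any single library (-1.03 to -0.84).

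Counts over all genes moved too. For 0.1 Gy at 24 h they went from 0 unpaired to 1107 with the block, 1768 with DESeq2 and the block, and 298 with the correction and the block. For 2 Gy at 24 h they went from 0 to 2100, 2321 and 564, with 108 in the fit of 24 libraries. For 2 Gy at 6 h the last 2 alternatives called 67 and 115 genes, and for 2 Gy against 0.1 Gy 110 and 104, with 15 in the fit of 24 libraries. The interaction went from 0 to 1143, 2469 and 402, and 24 h against 6 h from 1064 to 2428, 3075 and 4219, with 2488 in the fit of 24 libraries. No called value changed sign. Uncalled log2 fold changes crossed 0 in 8 to 20 fits per dose comparison, for members whose unpaired value was at most 0.20 in size. Low counts limit Cdkn1c, with 9 to 171 per library.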
